A study of Rattus norvegicus with 15 samples.

Results

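The 6 circular RNAs (circRNAs) described here held ranks 5 to 10 by mean level over 15 libraries of rat whole blood, out of 43472 circRNAs in the table. In order of that mean they were CBT15_circR_19347, CBT15_circR_24056, CBT15_circR_22135, CBT15_circR_9992, CBT15_circR_43355 and CBT15_circR_30989. They were chosen by their level in these same libraries, so levels and ranks are given as a description with no test. The animals were male rats of the outbred Sprague-Dawley strain, in a model of deep venous thrombosis (DVT), in which a clot forms in a deep vein. Each of the 5 groups had 3 libraries: a sham group labelled 0 h, and groups bled at 1 h, at 6 h, at 12 h, or at 3 d (labelled 72 h) after the model was made. The labels give no other allele or agent and do not say how the thrombosis was induced. They leave unsaid whether replicates were different rats, so p-values measure nothing beyond the spread between these libraries, which may be technical. Those of the group comparisons also took that spread largely from other circRNAs of like abundance, as described below.

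CircRNAs are closed loops of RNA made when a downstream splice donor is joined to an upstream acceptor, and a sequencing read that crosses this back-splice junction identifies them. Having no free ends, they resist exonucleases and can outlast the linear transcripts of the same gene. Red blood cells and platelets, which lack a nucleus, are known as rich sources of circRNAs in blood. In the table a circRNA has only a running number, without host gene, position or sequence, so the role of each member is not described here. In whole blood, fewer cells of a type and less RNA per cell cannot be told apart.

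Levels are in SRPBM, back-spliced reads per 1e9 mapped reads, so they compare junctions and not whole transcripts. The 15 libraries had 66.0 to 92.4 M mapped reads and listed 2551 to 15366 circRNAs, with a median of 10861. A pair of libraries stood apart: sham replicate 2 listed 2958 circRNAs and 1 h replicate 1 listed 2551, against 9354 to 15366 in the other 13. Library titles carry the prefix A&B for sham, 1 h and 3 d (9 libraries) and C for 6 h and 12 h (6 libraries), so the library set and the time cannot be told apart. The values of the members rested on 292 to 10609 reads each, and the largest counting error of a single value was 5.85% (coefficient of variation, CV). In all 30 combinations of member and group the CV between libraries, 4.59% to 119%, was larger than that of counting, 1.08% to 3.00%.

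All 6 members were listed in 15 of 15 libraries. Their means over the 15 libraries were 75387, 54242, 46770, 45723, 27981 and 19121 SRPBM in the order above. The circRNA at rank 4, CBT15_circR_1124, had a mean of 371548 SRPBM, 4.93 times that of CBT15_circR_19347, but was listed in 3 libraries. CBT15_circR_6871 at rank 11 had a mean of 19033 SRPBM, 88.3 SRPBM below CBT15_circR_30989, so the lower edge of the choice fell between near-equal circRNAs. By median in place of mean, 4 of the 6 members held ranks 5 to 10, since CBT15_circR_19347 and CBT15_circR_24056 moved up to ranks 3 and 4. Pooled over libraries, the 6 members took 1.75% of all back-spliced reads and 9.59% of those outside the 4 circRNAs of highest mean. Within libraries the latter share ran from 7.59% in 3 d replicate 3 (95% Wilson interval 7.47 to 7.71) to 14.1% in sham replicate 2 (13.9 to 14.3), intervals that cover counting error only.

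**Figure D1:**
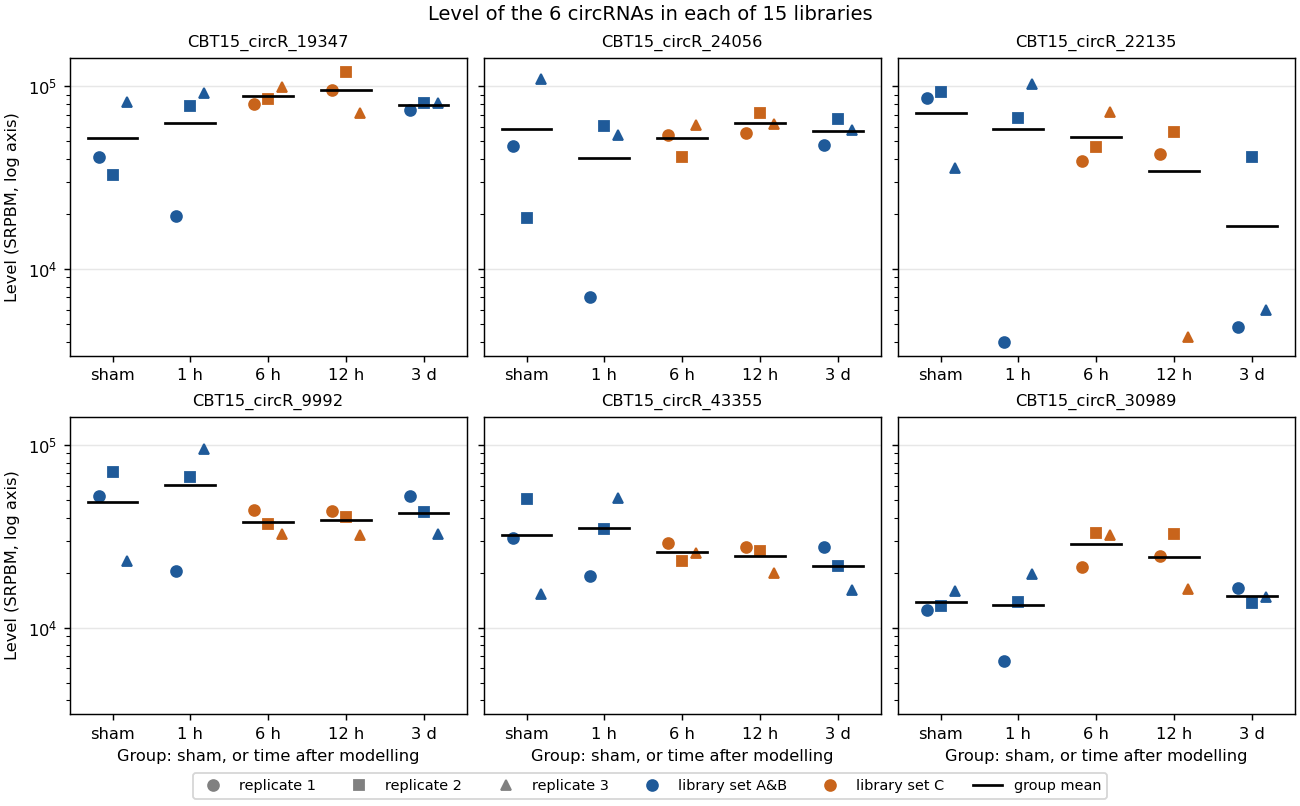
Level of each circRNA in SRPBM (log axis) in the 3 libraries of sham and of each time, with a line at the group mean, symbols for replicates and colours for library sets. CBT15_circR_22135 fell into libraries at 3983 to 5973 and libraries at 35842 to 103409 SRPBM, and CBT15_circR_30989 was higher at 6 h than in every sham library.

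CBT15_circR_19347, the highest of the 6, measured 41068, 32690 and 81531 SRPBM in sham replicates 1 to 3 and 19410, 77925 and 91587 SRPBM at 1 h. It measured 79703, 85343 and 99238 SRPBM at 6 h, 95376, 120197 and 71129 SRPBM at 12 h, and 74375, 80748 and 80485 SRPBM at 3 d. The low values were those of sham replicates 1 and 2 and 1 h replicate 1, and every later group overlapped sham through sham replicate 3. Group means ran from 51763 ± 26118 SRPBM (SD, n = 3) in sham to 95567 ± 24534 SRPBM at 12 h, 1.85 times sham, and no neighbouring pair in the order 12 h, 6 h, 3 d, 1 h, sham differed by more than the larger of their SDs, although 12 h and sham themselves did. The libraries of 3 d lay closest together of any member and group, with a CV of 4.59%.

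CBT15_circR_24056 measured 47036, 19093 and 109439 SRPBM in sham and 7011, 60461 and 54339 SRPBM at 1 h. At the later times it measured 54280, 41024 and 61017 SRPBM (6 h), 55359, 71309 and 61929 SRPBM (12 h), and 47601, 66179 and 57547 SRPBM (3 d). The pair of libraries with the fewest circRNAs held its 2 lowest values and sham replicate 3 its highest, so all groups from 6 h on lay within the range of sham. Its CV was 79.0% in sham and 72.0% at 1 h, against 12.8% to 19.5% in the other 3 groups. Group means from 40604 ± 29253 SRPBM at 1 h to 62866 ± 8016 SRPBM at 12 h (SD, n = 3) did not differ beyond their spread.

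CBT15_circR_9992 measured 52418, 70816 and 23326 SRPBM in sham and 20488, 66512 and 95088 SRPBM at 1 h. It measured 43895, 36872 and 32482 SRPBM at 6 h, 43786, 40492 and 31982 SRPBM at 12 h, and 52426, 42737 and 32531 SRPBM at 3 d. All values of the last 3 groups lay within the range of sham. Group means from 37750 ± 5757 SRPBM at 6 h to 60696 ± 37639 SRPBM at 1 h (SD, n = 3) did not differ beyond their spread.

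CBT15_circR_43355 measured 31162, 50678 and 15207 SRPBM in sham and 19178, 34620 and 51513 SRPBM at 1 h. The later groups measured 28961, 23161 and 25757 SRPBM (6 h), 27774, 26274 and 19904 SRPBM (12 h), and 27622, 21770 and 16129 SRPBM (3 d). They again lay within the range of sham, whose replicate 3 was the lowest of all 15 libraries, while 1 h replicate 1 was the lowest for the other 5 members. The highest group mean, 35104 ± 16173 SRPBM at 1 h, and the lowest, 21840 ± 5747 SRPBM at 3 d (SD, n = 3), did not differ beyond their spread.

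CBT15_circR_30989 measured 12478, 13143 and 15891 SRPBM in sham and 6615, 13905 and 19682 SRPBM at 1 h. It measured 21448, 32937 and 32275 SRPBM at 6 h, 24722, 32437 and 16321 SRPBM at 12 h, and 16576, 13599 and 14787 SRPBM at 3 d. All 6 libraries of 6 h and 12 h lay above the 3 of sham, and those of 3 d overlapped sham. The mean at 6 h, 28887 ± 6451 SRPBM (SD, n = 3), was 2.09 times that of sham, 13837 ± 1809 SRPBM, and the mean at 12 h, 24493 ± 8060 SRPBM, was 1.77 times it. In the order 6 h, 12 h, 3 d, sham, 1 h the means of 12 h and 3 d were the only neighbours that differed by more than the larger SD. Since 6 h and 12 h were also the whole of library set C, this step cannot be told apart from a difference between library sets.

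Ranges that do not overlap sham were seen for 1 of 6 members at 6 h and at 12 h, CBT15_circR_30989 both times, against 8.59% and 7.00% of the 16767 circRNAs tested. For 1 h and 3 d against sham no member had such ranges, against 1.66% and 4.52% of all tested, and for 3 d against 1 h and 12 h against 6 h none did, against 4.56% and 5.55%.

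Differences between groups were tested with limma on log2(SRPBM + 23.2) across the 16767 circRNAs above 0 in at least 3 libraries, and a circRNA was called where its p, adjusted by Benjamini-Hochberg, was under 0.05. All 4 comparisons with sham share its 3 libraries. Against sham, limma called 0 of 6 members at 1 h (0.0239% of all tested were called), 0 of 6 at 6 h (0.0477%) and 0 of 6 at 12 h (0.0477%), where 1, 2 and 2 members had an unadjusted p under 0.05, as did 3.41%, 7.75% and 6.64% of all tested. These unadjusted values rested on a spread that limma drew largely from the trend. Without the trend those of CBT15_circR_19347 and CBT15_circR_30989 at 6 h were 0.198 and 0.0982. Those of CBT15_circR_19347 and CBT15_circR_22135 at 12 h were then 0.157 and 0.163, and that of CBT15_circR_22135 at 1 h was 0.324. At 3 d limma called 1 of 6 (0.0537% of all tested), CBT15_circR_22135. There 2 members had an unadjusted p under 0.05, as did 4.51% of all tested. Without the trend the unadjusted limma p was 0.290 for CBT15_circR_19347 and 0.0272 for CBT15_circR_22135. The median log2 change of the members from sham was -0.03 (1 h), -0.0014 (6 h), 0.12 (12 h) and 0.018 (3 d), beside 0.11, 0.46, 0.43 and 0.20 over all circRNAs tested. In each of these comparisons 3 of the 6 members had a change above 0.

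Between times, limma called 0 of 6 members for 3 d against 1 h (0.0358% of all tested) and 0 of 6 for 12 h against 6 h (0.0119%), with 2 and 1 members at an unadjusted p under 0.05, beside 4.92% and 3.80% of all tested. The median log2 change of the members was 0.008 and -0.024, beside 0.019 and -0.018 over all tested. For library set C against A&B it called 0 of 6 (0.0775%), with 2 members at an unadjusted p under 0.05, beside 9.57% of all tested. CBT15_circR_19347 and CBT15_circR_30989 were those 2, with log2 differences of 0.64 (SE 0.21) and 0.93 (SE 0.29) and the same adjusted p of 0.409 by limma. Without the trend their unadjusted limma p was 0.145 and 0.0266. For 3 d against 1 h it was 0.218 for CBT15_circR_24056 and 0.186 for CBT15_circR_22135 without the trend. For 12 h against 6 h it was 0.280 for CBT15_circR_22135.

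The 2 members whose means lay furthest above sham did not pass the test. CBT15_circR_30989 had a log2 change of 1.04 (SE 0.45, limma adjusted p = 0.640) at 6 h and 0.78 (SE 0.45, adjusted p = 0.743) at 12 h. CBT15_circR_19347 had a log2 change of 0.87 at 6 h (SE 0.32, adjusted p = 0.640), 0.97 at 12 h (adjusted p = 0.733) and 0.71 at 3 d (adjusted p = 0.952). Scaled to the total circRNA signal without the 10 highest circRNAs, the changes at 6 h and 12 h were smaller, 0.54 and 0.36 for CBT15_circR_30989 and 0.38 and 0.55 for CBT15_circR_19347 on the log2 scale. Without the pair of libraries with the fewest circRNAs they were 1.01 and 0.74, and 0.60 and 0.69. For CBT15_circR_24056, CBT15_circR_9992 and CBT15_circR_43355 the log2 changes from sham lay between -0.70 and 0.44, with SEs of 0.37 to 0.41.

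**Figure D2:**
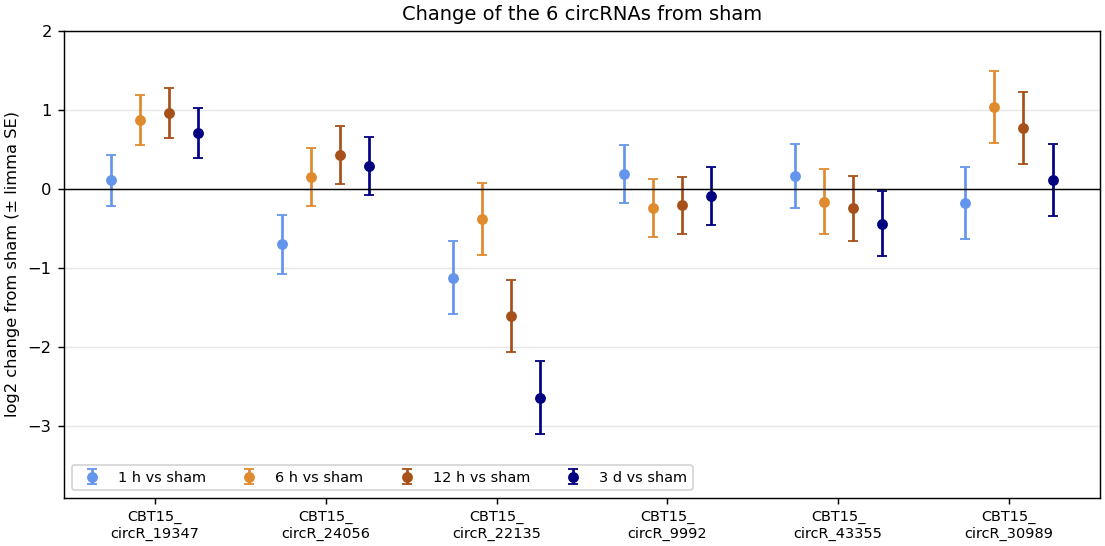
Log2 change of each circRNA from sham in each group bled after modelling, on the log2(SRPBM + 23.2) scale, with bars of 1 limma standard error to each side. CBT15_circR_22135 had the most negative changes, reaching -2.64 at 3 d, while those of CBT15_circR_9992 lay between -0.24 and 0.19.

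CBT15_circR_22135 differed from the other members in having 2 separate levels, the pattern for which it was singled out. It measured 85893, 92711 and 35842 SRPBM in sham, 3983, 67354 and 103409 SRPBM at 1 h and 38806, 46540 and 72568 SRPBM at 6 h. It measured 42578, 55935 and 4243 SRPBM at 12 h, and 4837, 40887 and 5973 SRPBM at 3 d. The lower level therefore held 4 libraries, 1 of 1 h, 1 of 12 h and 2 of 3 d, and none of sham or 6 h. Group means, in the order of their size and of time, ran from 71482 ± 31053 SRPBM in sham through 58249 ± 50335 SRPBM (1 h), 52638 ± 17688 SRPBM (6 h) and 34252 ± 26833 SRPBM (12 h) to 17232 ± 20494 SRPBM at 3 d (SD, n = 3). No neighbours in this order differed by more than the larger of their SDs, and sham and 3 d did. Without 1 h replicate 1 the mean of 1 h was 85382 SRPBM, 1.19 times that of sham, and its log2 change from sham turned from -1.12 to 0.34, so the place of 1 h in this order rests on that library. The mean of the lower level was 4759 ± 885 SRPBM (SD, n = 4 libraries of 3 groups), and that of the other 11 libraries was 62047 ± 23854 SRPBM, 13.0 times as high. The nearest values on either side, 5973 and 35842 SRPBM, differed 6.00-fold, a gap of 2.58 on the log2 scale, while the next widest gap among its libraries was 0.30.

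The lower level was well above the smallest listed value, with 292 to 414 reads per library against 3090 to 9184 in the upper. Libraries of the lower level had 69.3 to 92.4 M mapped reads and listed 2551 to 10861 circRNAs, and those of the upper had 66.0 to 89.7 M and listed 2958 to 15366. Both ranges overlap, and of the pair of libraries with the fewest circRNAs, 1 h replicate 1 was in the lower level and sham replicate 2 in the upper. Both library sets held both levels, with 3 of 9 A&B libraries and 1 of 6 C libraries in the lower. The part of depth, of the number of circRNAs listed and of the library set in the pattern was not tested.

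Such a gap was uncommon among circRNAs of like detection. Of the 886 circRNAs listed in all 15 libraries, 17 (1.92%) had a wider gap, and each of those 17 gaps set 1 h replicate 1 alone below the other 14 libraries. Counting every gap between neighbouring libraries and not just the widest, CBT15_circR_22135 was the 1 circRNA of the 886 with a gap at least as wide and 2 or more libraries on each side. The median widest gap over the 886 was 0.73 on the log2 scale. Its standard deviation within groups, 1.69 on the log2 scale, was above that of 99.7% of the 886, whose median was 0.68. The same percentages were 85.8% for CBT15_circR_24056, 47.2% for CBT15_circR_9992, 45.1% for CBT15_circR_19347, 25.3% for CBT15_circR_43355 and 12.1% for CBT15_circR_30989.

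**Figure D3:**
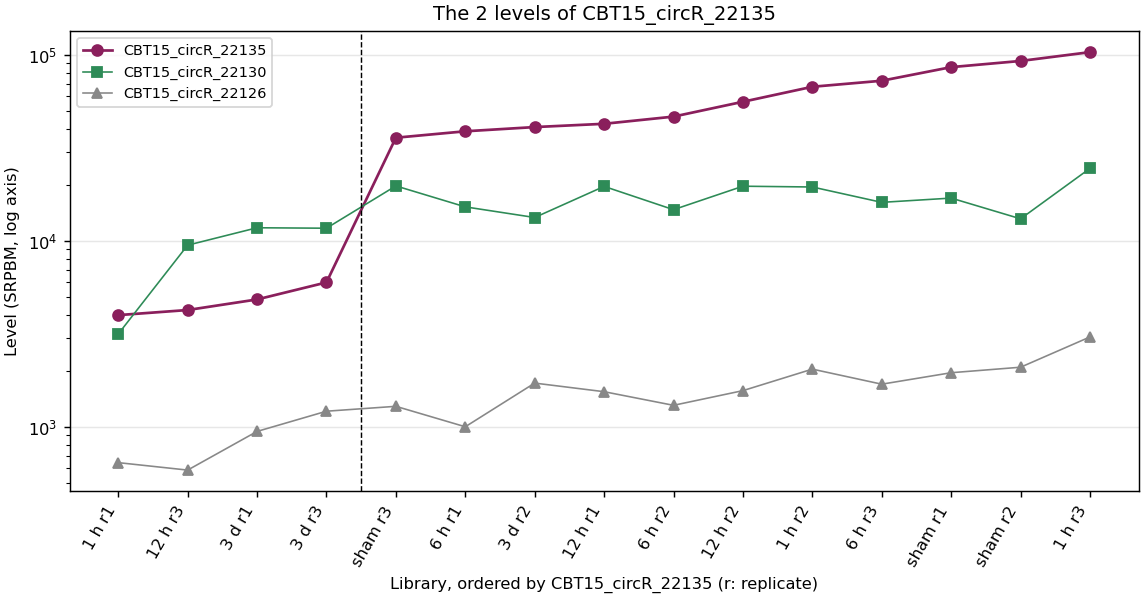
Level in SRPBM (log axis) of CBT15_circR_22135 and of 2 circRNAs of nearby running number in each library, ordered by CBT15_circR_22135, with the dashed line at its widest gap. CBT15_circR_22130 was also lower in the 4 libraries to the left of the line, 3151 to 11751 against 13128 to 24524 SRPBM, by far less than CBT15_circR_22135. CBT15_circR_22133 and CBT15_circR_22134, nearer in number and not drawn, had medians to the right of the line 1.17 and 1.09 times those to the left.

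The split was cut at the widest gap of CBT15_circR_22135, so its own separation was fixed by that choice. Few circRNAs in the rest of the table had the same split, and it was small in the other members. The ratio of the median of the 11 libraries to that of the 4 was 12.3 for CBT15_circR_22135, and 1.12, 1.05, 1.36, 1.42 and 1.27 for CBT15_circR_19347, CBT15_circR_24056, CBT15_circR_9992, CBT15_circR_43355 and CBT15_circR_30989. For each of these 5 the ranges of the 4 and the 11 libraries overlapped. Of 4109 circRNAs above 0 in at least 12 libraries, 4 (0.0973%) had all 4 libraries below all 11, and 0 had them all above. CBT15_circR_22135 was among those 4 by construction. Any given split of the libraries may be met by few circRNAs, and the number to be expected by chance was not tested.

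The other three, named after their values were seen, were CBT15_circR_22130 with a ratio of medians of 1.60, CBT15_circR_26806 with 2.18 and CBT15_circR_30759 with 1.93. None had a gap near that of CBT15_circR_22135: the lowest of the 11 libraries was 1.12, 1.03 and 1.26 times the highest of the 4. CBT15_circR_22130 is also the most abundant circRNA within 5 running numbers of CBT15_circR_22135, at rank 14 of the table. CBT15_circR_22133 and CBT15_circR_22134, nearer in number, had ratios of medians of 1.17 and 1.09. Their r with CBT15_circR_22135 over 15 libraries was 0.21 and 0.02, at levels of at most 293 and 415 SRPBM. CBT15_circR_22127, farther in number, had a ratio of 1.86 and r = 0.68, with overlapping ranges. Whether neighbouring numbers stand for neighbouring junctions is not stated in the sources used here.

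The circRNAs most like CBT15_circR_22135 by Pearson r of log2 levels over 15 libraries, among 4103 others above 0 in at least 12, were CBT15_circR_22126 (r = 0.87) and CBT15_circR_19986 (r = 0.83). CBT15_circR_19986 rested on 0 to 17 reads per library, was listed at 0 in 2 of the 4 libraries of the lower level, and had r = 0.36 within the 11 of the upper. CBT15_circR_22126 measured 584 to 1212 SRPBM in the 4 libraries and 999 to 3040 SRPBM in the 11, so its ranges overlapped, and its r within the 11 libraries of the upper level was 0.84. For CBT15_circR_22130 the r was 0.74 over all 15 and 0.19 within the 11. The most opposite circRNAs among all tested were CBT15_circR_23484 (r = -0.80) and CBT15_circR_11846 (r = -0.77). They were listed in 6 and 3 libraries and reached 109 and 97.4 SRPBM, so they held no counterpart of comparable level. CBT15_circR_11846 was listed only in libraries of the lower level, on 5 to 9 reads. CBT15_circR_23484 was the 1 of 16767 circRNAs tested with all 4 libraries above all 11, on 4 to 8 reads in the 4. Of the same 16767, 5 had the 4 all below.

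The call of CBT15_circR_22135 at 3 d came from the same values as this pattern and is no independent support for it. Its log2 change from sham was -2.64 (SE 0.46, limma adjusted p = 0.000371), and its mean at 3 d was 0.241 times that of sham. Without 3 d replicate 2 the change was -3.61 and the ratio of means 0.0756, and over all libraries left out in turn the change ranged from -3.61 to -2.07. The groups overlapped, since 3 d replicate 2 at 40887 SRPBM lay above sham replicate 3 at 35842 SRPBM. Limma used a spread of 0.56 for it, which combined its own spread of 1.69 with the trend over circRNAs of like abundance. Without the trend limma called 0 of all circRNAs tested for 3 d against sham, and the adjusted p of CBT15_circR_22135 was 0.937. The adjusted p was 0.684 in a limma fit of only the groups compared. It was also above the threshold with a pseudocount of 1 SRPBM (0.842), with a 10-fold larger pseudocount (0.591) and over circRNAs above 0 in 8 or more libraries (0.769). Without the pair of libraries with the fewest circRNAs the log2 change was -2.39 (limma adjusted p = 0.0199). Leaving out 1 library ended the call for sham replicate 2 (adjusted p = 0.449), 6 h replicate 1 (0.158), 3 d replicate 1 (0.165) and 3 d replicate 3 (0.202), in limma fits of the remaining 14.

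In the limma F test over all 5 groups 4 members had an unadjusted p under 0.05, as did 4.37% of all tested. Without the trend the lowest unadjusted p of a member was 0.174. The limma F test called 1 of 6 members (0.179% of all tested), again CBT15_circR_22135 (adjusted p = 0.000174). That call was also lost without the trend (adjusted p = 0.939), and without sham replicate 2 (0.0995), 6 h replicate 1 (0.231), 6 h replicate 2 (0.0557), 3 d replicate 1 (0.0909) or 3 d replicate 3 (0.0578). CBT15_circR_19347 passed the limma F test without 1 h replicate 3 (adjusted p = 0.0396), against 0.624 with all libraries. At the other times CBT15_circR_22135 had log2 changes from sham of -1.12 at 1 h, -0.37 at 6 h and -1.60 at 12 h (limma adjusted p = 1, 0.803 and 0.456). Without 12 h replicate 3, the 12 h library of the lower level, the 12 h change was -0.43 (limma adjusted p = 0.813). For 3 d against 1 h its log2 change was -1.52 (limma adjusted p = 0.576), and leaving out 1 h replicate 1, which is in the lower level, made it -2.98 (0.00014). Leaving out 3 d replicate 2, the 3 d library in the upper level, made it -2.49 (limma adjusted p = 0.00228). Each of these libraries ran against the change, so a larger change followed from leaving it out. Both fits kept the trend, and over all libraries the unadjusted limma p without the trend was 0.186.

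Correlations between members were computed over libraries for all 15 pairs, with two-sided permutation tests and Benjamini-Hochberg adjustment over the 15. All members share a library's depth and its mapped-read denominator, so each r describes these libraries. Because its libraries form 2 clusters, pairs with CBT15_circR_22135 were computed within its 11 upper libraries. The adjusted p of Pearson r was under 0.05 for 5 pairs, and that of Spearman rho for 2 of them.

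CBT15_circR_9992 and CBT15_circR_43355 had the closest relation, with r = 0.91 and rho = 0.92 over 15 libraries (permutation p = 1e-05 for each, the smallest the permutations can give, adjusted p = 0.00015). Without the libraries farthest from the median, 1 h replicates 1 and 3, r was 0.90, and it was 0.92 within the 9 A&B libraries (exact permutation p = 0.000929) and 0.79 within the 6 C libraries (exact permutation p = 0.0542). CBT15_circR_9992 was above CBT15_circR_43355 in 15 of 15 libraries, and the ratio of their levels stayed between 1.07 and 2.02, the narrowest range of any pair.

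CBT15_circR_19347 and CBT15_circR_30989 had r = 0.82 and rho = 0.80 over 15 libraries (permutation, adjusted p = 0.00015 and 0.00345). Without 1 h replicate 1 and sham replicate 2, the farthest from the median, r was 0.70 (permutation p = 0.0012), and within the A&B and C libraries it was 0.87 (exact permutation p = 0.000813) and 0.77 (0.0583). Their ratio ran from 2.49 to 5.94.

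The other 3 pairs had no adjusted p of rho under 0.05, and their r was lower without the libraries farthest from the median. CBT15_circR_19347 and CBT15_circR_24056 had r = 0.87 (permutation, adjusted p = 0.00315) but rho = 0.56 (adjusted p = 0.127). Without 1 h replicate 1 and sham replicate 2, r was 0.30 (permutation p = 0.260). That step narrows the range of CBT15_circR_19347, so it cannot tell whether the relation rests on those libraries. Within the A&B libraries, which hold both of them, r was 0.91 (exact permutation p = 0.00116), and within the C libraries 0.43 (0.407). Leaving out each library in turn gave r of 0.70 to 0.91. It was 0.77 after median-ratio scaling over circRNAs listed in every library (permutation, adjusted p = 0.00405). Scaled to the total circRNA signal without the 10 highest circRNAs, it was 0.61 (0.0277). Over its 11 upper libraries CBT15_circR_22135 had r = 0.82 with CBT15_circR_43355 (permutation, adjusted p = 0.00315; rho = 0.75, adjusted p = 0.0548) and r = 0.74 with CBT15_circR_9992 (adjusted p = 0.0265; rho = 0.63, adjusted p = 0.131). Without 1 h replicate 3 and sham replicate 2, the farthest from the median of CBT15_circR_22135, r was 0.63 (exact permutation p = 0.0627) and 0.48 (0.198). This narrows the range of CBT15_circR_22135 and leaves 9 libraries, so it cannot tell whether the relations rest on those libraries. Leaving out each library in turn gave r of 0.75 to 0.88 and 0.63 to 0.85. Within the 6 A&B libraries of the upper level r was 0.94 (exact permutation p = 0.00417) and 0.89 (0.00694), and the 5 C libraries were too few for a value.

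The remaining 10 pairs had r from -0.53 to 0.58, none with an adjusted permutation p under 0.05. All pairs between CBT15_circR_19347, CBT15_circR_24056 or CBT15_circR_30989 on one side and CBT15_circR_9992, CBT15_circR_43355 or CBT15_circR_22135 on the other were among them. The sign of some of these depended on the scaling. After median-ratio scaling over circRNAs listed in every library, r between CBT15_circR_19347 and CBT15_circR_9992 went from 0.16 to -0.65 (permutation, adjusted p = 0.0183). With CBT15_circR_43355 and CBT15_circR_22135 the r of CBT15_circR_19347 went from -0.07 to -0.87 (permutation, adjusted p = 0.0003) and from -0.45 to -0.88 (0.00379). The relation of CBT15_circR_19347 and CBT15_circR_30989 was r = 0.53 under that scaling (permutation, adjusted p = 0.0579) and r = 0.22 (adjusted p = 0.468) with levels scaled to the total circRNA signal without the 10 highest circRNAs, while that of CBT15_circR_9992 and CBT15_circR_43355 was 0.87 (0.0003) under median-ratio scaling.

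**Figure D4:**
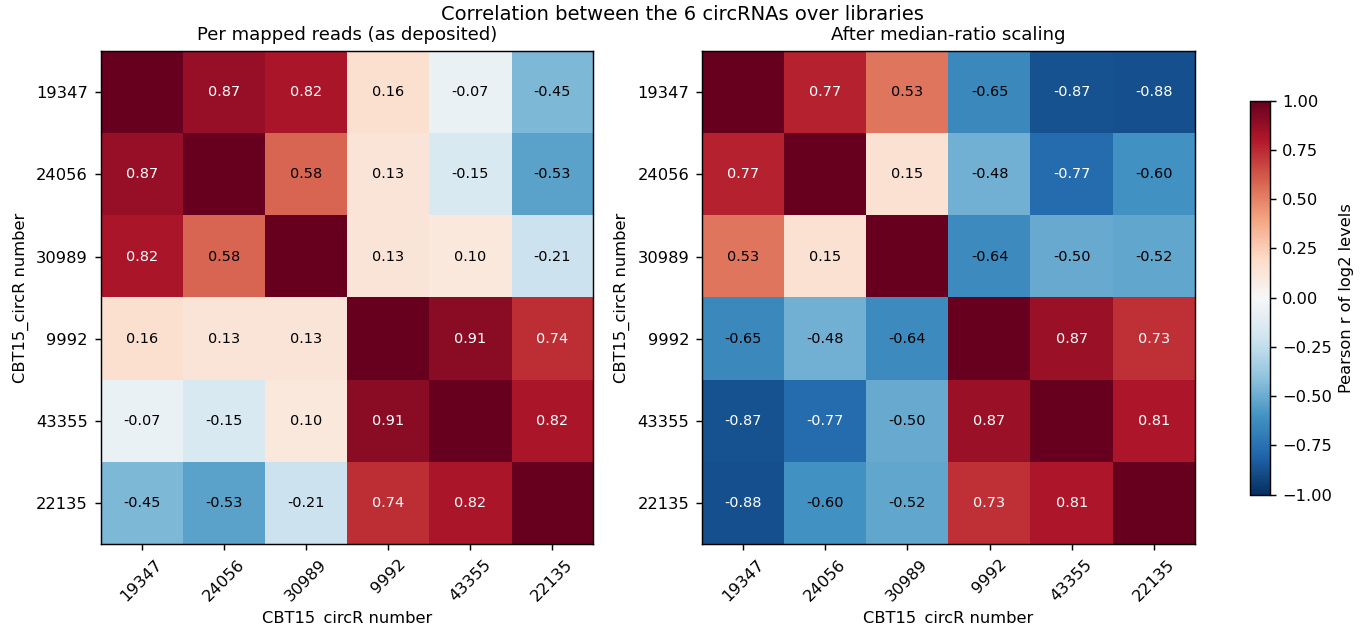
Pearson r of log2 levels between members over 15 libraries (11 for pairs with CBT15_circR_22135), per mapped reads on the left and after median-ratio scaling on the right. CBT15_circR_9992 and CBT15_circR_43355 kept r near 0.9 on both scales, while r of CBT15_circR_19347 with CBT15_circR_9992 changed from 0.16 to -0.65.

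The number of circRNAs listed was compared with the members' levels over 13 libraries, leaving out sham replicate 2 and 1 h replicate 1, which form a separate cluster, and over 10 for CBT15_circR_22135. Of 12 relations, 6 with this number and 6 with mapped reads, 1 had an adjusted permutation p under 0.05, that of CBT15_circR_19347 with circRNAs listed (r = 0.68, adjusted p = 0.0404; rho = 0.66, adjusted p = 0.200). Without the libraries farthest from the median, 1 h and 6 h replicate 3, r was 0.70 (permutation p = 0.0191). Within the 7 A&B libraries of these r was 0.56 (exact permutation p = 0.177), and within the 6 C libraries it was 0.79 (0.0681). CBT15_circR_30989 came next with r = 0.61 (permutation, adjusted p = 0.171), and the other relations with circRNAs listed had r from 0.15 to 0.38. In the pair of libraries left out, CBT15_circR_19347 and CBT15_circR_24056 were at their 2 lowest levels, whereas CBT15_circR_9992 and CBT15_circR_43355 were among their highest in sham replicate 2.

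**Figure D5:**
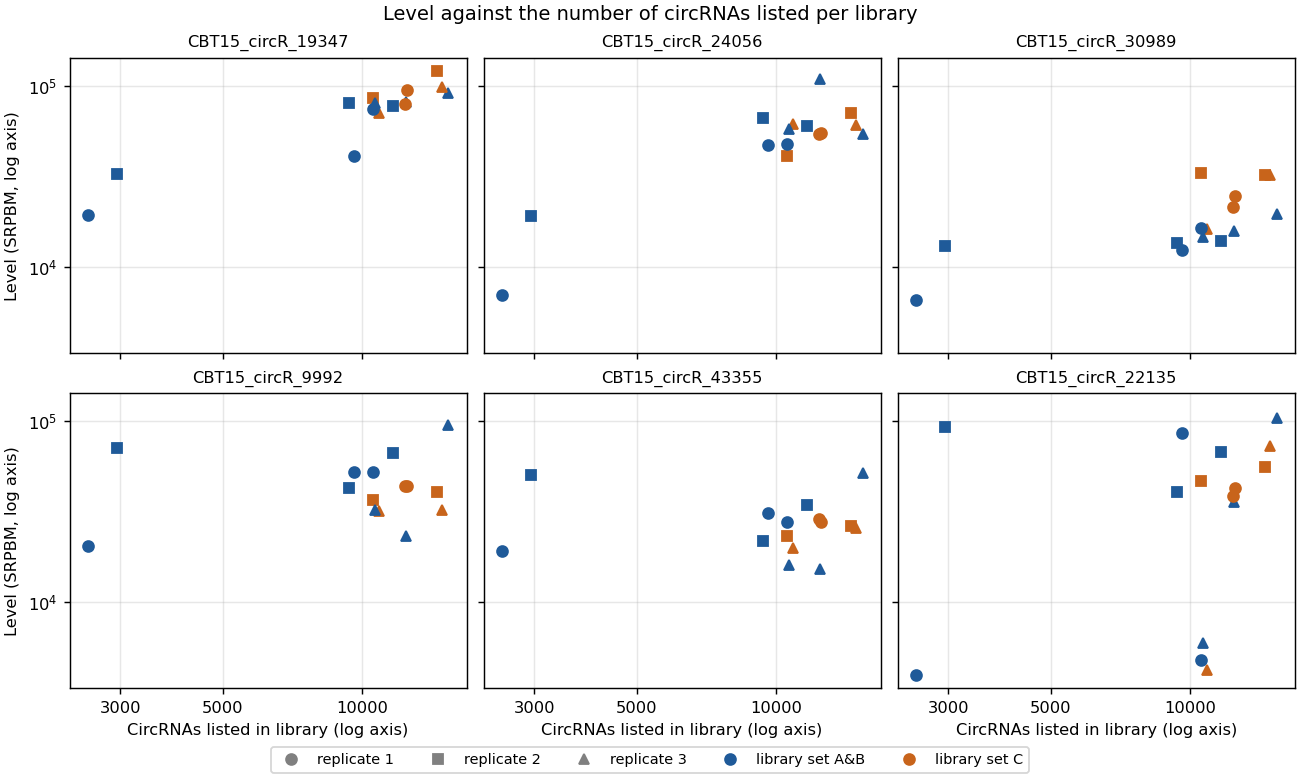
Level of each circRNA in SRPBM against the number of circRNAs listed in the library, both on log axes, with symbols for replicates and colours for library sets. The 2 libraries with 2958 and 2551 circRNAs stand apart at the left, low for CBT15_circR_19347 and CBT15_circR_24056 and, in sham replicate 2, high for CBT15_circR_9992, CBT15_circR_43355 and CBT15_circR_22135.

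Outside the 6, the circRNAs with the most similar levels were found among 4103 others above 0 in at least 12 libraries, by Pearson r of log2 levels over 15 libraries. They were CBT15_circR_9535 and CBT15_circR_40477 for CBT15_circR_19347 (r = 0.98 each), and CBT15_circR_42308 (r = 0.98) and CBT15_circR_10407 (r = 0.96) for CBT15_circR_24056. Over the 13 libraries other than those with the fewest circRNAs, these became 0.94, 0.91, 0.78 and 0.62. For CBT15_circR_9992 they were CBT15_circR_33877 (r = 0.93) and CBT15_circR_33733 (r = 0.92), for CBT15_circR_43355 CBT15_circR_1442 (r = 0.94) and CBT15_circR_37090 (r = 0.91), and for CBT15_circR_30989 CBT15_circR_17410 (r = 0.95) and CBT15_circR_36359 (r = 0.94). Those 6 values were 0.89 to 0.94 over the 13 libraries, so they depended less on the pair left out than those of CBT15_circR_24056. These circRNAs were chosen for the highest r, which is therefore a description.

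The most abundant circRNA within 5 running numbers of each member gave another view of the table. CBT15_circR_30992, beside CBT15_circR_30989, had a mean of 1250 SRPBM and r = 0.85 with it, 0.82 over the 13 libraries. CBT15_circR_19345 and CBT15_circR_24053 had r = 0.87 and 0.77 with CBT15_circR_19347 and CBT15_circR_24056, and 0.38 and 0.36 over the 13. CBT15_circR_9988 and CBT15_circR_43351 had r = 0.11 and -0.08 with CBT15_circR_9992 and CBT15_circR_43355, at means of 90.3 and 185 SRPBM.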

How the data were processed

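The 15 libraries of whole-blood RNA were grouped by the time and description in the labels. The deposited signal is 1 table of SRPBM, which the authors made, per the file's name, from find_circ junction reads scaled to 1e9 mapped reads. Bowtie 0.12.2 and Rnor_6.0 are listed per the submitters' processing notes, with no role given, and calling thresholds are not given in the sources used. Every value was a whole multiple of 1 step per library, from 2 reads up (largest deviation 0.000413 reads over all values and 3.16e-06 over those of the members), which gave the mapped reads and the reads behind each value. No 2 libraries held identical values.

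Limma 3.58.1 in R 4.3.3 (trend of the spread on abundance) was run on log2(SRPBM + 23.2), the pseudocount being the median over libraries of the smallest value above 0. It used all 5 groups in 1 fit over the 16767 circRNAs above 0 in at least 3 libraries, and was tested on simulated data. Log2 changes on this scale understate those of low circRNAs. Correlations used 100000 permutations, or exact enumeration under 10 libraries (Python 3.11.15, numpy 2.4.6). Group means were said to differ beyond their spread where their difference was above the larger SD.

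The members and the rules for naming others were chosen with earlier results of these data known. The rule named the circRNAs at ranks 4 and 11, the 2 with the highest r to each member, the 2 most opposite to CBT15_circR_22135 and the most abundant within 5 running numbers. The alternatives were other pseudocounts, filters and scalings, no trend, a replicate block, fewer groups or libraries, and ranking by median. Host genes, positions and sequences were not analysed here, nor were the messenger RNA profiles.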

Additional observations from a re-analysis of the deposited data

How the results depend on the processing

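Of 1044 alternative log2 changes of the members (42 results), 53 changed sign, none of them a called value, and 17 results never did; of 300 alternative r values (15 pairs), 24 changed sign, and 5 pairs never did. All changes of sign are given below, and the cause was not tested. Without a filter limma called 2 members each at 1 h, 6 h, 12 h and 3 d against sham, and 3 for 3 d against 1 h. It called 1 for 12 h against 6 h, 3 for set C against A&B and 4 by the F test. Over all circRNAs this setting called 10, 11, 13, 8, 13, 6, 20 and 35 in the same order of comparisons. The limma F test's adjusted p of CBT15_circR_22135 was 4.73e-66 without a filter, on a spread taken largely from the trend. The SE of its 3 d change from sham was then 0.16, beside 0.46 with the filter. Its own standard deviation within groups was 1.69. For 3 d against sham and for the F test limma called 0 members with a 1 SRPBM pseudocount and with a 10-fold larger one. The count was also 0 over circRNAs above 0 in 8 or more libraries and without the trend. For 3 d against sham it was 0 too in a fit of only the groups compared. Without the trend limma called 0 of all circRNAs for 3 d against sham and 1 by the F test. With median-ratio scaling the limma F test called 2 members, CBT15_circR_22135 (adjusted p = 0.00474) and CBT15_circR_19347 (0.0299). Over all circRNAs the F test called 0 to 77 among the alternatives. The number under this scaling is not given here, so the 2 members are not set against it. Without the 2 libraries with the fewest circRNAs 1 member was called for 3 d against 1 h, among 45 circRNAs in all. Leaving out each library in turn gave 0 to 1 members for 3 d against sham and for 3 d against 1 h, and 0 to 2 by the F test. Over all circRNAs these fits called 0 to 15, 2 to 22 and 13 to 46. Deviations of same-numbered libraries had a median r of 0.04 (over 0.1 in 10 of 30 pairs). Those of differently numbered libraries had -0.03 (11 of 60 pairs). These values do not settle whether the replicate numbers pair the libraries. With a replicate block limma called 1 member for 3 d against sham (adjusted p = 3.02e-07) and 1 by the F test. These were the same counts as without it, so the block changed no call of a member. Over all circRNAs the block gave 6, 9, 13, 10, 11, 3, 15 and 37 calls in the order used above, each more than without it. Calls over all circRNAs tested moved widely: 0 to 28 (1 h against sham), 0 to 20 (6 h), 0 to 21 (12 h), 0 to 15 (3 d), 0 to 45 (3 d against 1 h), 0 to 6 (12 h against 6 h), 0 to 27 (library sets) and 0 to 77 (F test), beside 4, 8, 8, 9, 6, 2, 13 and 30.

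Without the 2 libraries with the fewest circRNAs, log2 changes from sham that changed sign became 0.59 for CBT15_circR_22135 and 0.23 for CBT15_circR_30989 at 1 h, -0.48, -0.20 and -0.34 for CBT15_circR_24056 at 6 h, 12 h and 3 d, 0.099, 0.14 and 0.26 for CBT15_circR_9992 at those times, and 0.25 and 0.16 for CBT15_circR_43355 at 6 h and 12 h. For 3 d against 1 h they became -0.11 for CBT15_circR_19347, -0.018 for CBT15_circR_24056 and -0.15 for CBT15_circR_30989, and between library sets -0.12 for CBT15_circR_24056 and -0.14 for CBT15_circR_22135. Scaling to total signal, which moved the median over all circRNAs at 6 h from 0.46 to 0.34 and that of the members from -0.0014 to -0.50, gave -0.34 for CBT15_circR_24056 at 6 h, -0.10 for CBT15_circR_30989 at 3 d and -0.11 for CBT15_circR_22135 between library sets. Median-ratio scaling gave -0.13 for CBT15_circR_24056 at 6 h and 0.0017 for CBT15_circR_43355 between 12 h and 6 h.

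Leaving out each library in turn, the 1 h change from sham ranged from -0.30 to 0.82 for CBT15_circR_19347, -1.33 to 0.31 for CBT15_circR_24056, -2.003 to 0.34 for CBT15_circR_22135, -0.27 to 0.85 for CBT15_circR_9992, -0.29 to 0.58 for CBT15_circR_43355 and -0.52 to 0.27 for CBT15_circR_30989. CBT15_circR_24056 ranged from -0.48 to 0.78 at 6 h, -0.20 to 1.06 at 12 h and -0.34 to 0.92 at 3 d. CBT15_circR_9992 ranged from -0.70 to 0.099, -0.66 to 0.14 and -0.54 to 0.26 at those times. CBT15_circR_43355 ranged from -0.62 to 0.25 at 6 h and -0.70 to 0.16 at 12 h. For 3 d against 1 h the ranges were -0.11 to 1.01 for CBT15_circR_19347, -0.018 to 1.53 for CBT15_circR_24056, -0.93 to 0.18 for CBT15_circR_9992 and -0.15 to 0.64 for CBT15_circR_30989. For 12 h against 6 h they were -0.091 to 0.29 for CBT15_circR_19347, -0.066 to 0.17 for CBT15_circR_9992 and -0.18 to 0.063 for CBT15_circR_43355, and between library sets -0.22 to 0.85 for CBT15_circR_22135 and -0.27 to 0.024 for CBT15_circR_43355.

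The count of member pairs correlated, 5, became 9 with median-ratio scaling, 8 with scaling to total signal and 3 without the 2 libraries with the fewest circRNAs. As deviations from group means it was 4: CBT15_circR_22135 with CBT15_circR_9992 (r = 0.57, adjusted p = 0.159) and with CBT15_circR_43355 (r = 0.55, 0.164) were lost and CBT15_circR_24056 with CBT15_circR_30989 (r = 0.64, 0.0417) was gained, by permutation. For the first 3 settings in turn, r became -0.65, -0.70 and -0.11 for CBT15_circR_19347 and CBT15_circR_9992, -0.48, -0.50 and -0.48 for CBT15_circR_24056 and CBT15_circR_9992, and -0.64, -0.32 and -0.17 for CBT15_circR_9992 and CBT15_circR_30989. The r of CBT15_circR_43355 and CBT15_circR_30989 became -0.50 and -0.11 under the 2 scalings, and that of CBT15_circR_24056 and CBT15_circR_30989 -0.26 with total signal and -0.14 without the 2 libraries. As deviations from group means, r was 0.17 (CBT15_circR_19347 and CBT15_circR_22135), 0.16 (CBT15_circR_19347 and CBT15_circR_43355), 0.059 (CBT15_circR_24056 and CBT15_circR_22135), 0.0058 (CBT15_circR_24056 and CBT15_circR_43355) and 0.37 (CBT15_circR_22135 and CBT15_circR_30989). Leaving out each library, r ranged from -0.33 to 0.37 (CBT15_circR_19347 and CBT15_circR_9992), -0.37 to 0.20 (CBT15_circR_19347 and CBT15_circR_43355), -0.56 to 0.32 (CBT15_circR_24056 and CBT15_circR_9992), -0.65 to 0.058 (CBT15_circR_24056 and CBT15_circR_43355), -0.25 to 0.22 (CBT15_circR_9992 and CBT15_circR_30989) and -0.066 to 0.23 (CBT15_circR_43355 and CBT15_circR_30989). A count test on the reads recovered from the steps between values was planned and not run.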
